A study of Mus musculus with 4 samples.

Results

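The Hoxb cluster is a row of homeobox genes on mouse chromosome 11, and its 9 genes from Hoxb1 to Hoxb9 were followed through 4 sorted fractions of bone marrow. They were taken as a named list: every probe whose RefSeq accession belongs to 1 of these genes was used, which gave 10 of the 55678 probes kept on the array and 9 of 20284 named genes. Hoxb3 had 2 probes and each other gene had 1. Cells came from female C57BL6 mice aged 8 weeks, and each fraction was measured once on a single-colour Agilent array. Long-term stem cells (LT-HSC) were CD34-negative, c-Kit-positive, Sca-1-positive and lineage-negative, while the short-term fraction (ST-HSC) had the same gates except that it was CD34-positive. Progenitors are labelled c-Kit-positive and lineage-negative on the sample itself, while the sorting protocol adds a Sca-1-negative gate and also names lineage-positive cells. Lin+ cells carried lineage markers of differentiated cells. The labels do not say how many mice gave a fraction.

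Hox proteins are transcription factors that bind DNA through a homeodomain, often together with Pbx and Meis proteins, and the order of the genes along a cluster follows the order in which they are used along the body axis of the embryo. In blood formation they are known from stem cells and early progenitors. Hoxb4 is known for expanding stem cells when supplied in excess, and Hoxb5 has been used as a marker of long-term stem cells in mice. Cdx proteins, retinoic acid receptors and the MLL complex, which holds menin, are known to act on Hox genes, and Polycomb proteins are known to silence them.

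Each fraction rests on 1 array, so differences have no replicate check and carry no p-value. The ± of a value is the error that the scanner software computed for the spot, and it does not cover the spread between mice. Signals are in intensity units of the scanner. To compare arrays, each signal was also expressed as log2 signal minus the array's 75th percentile over all probes, called scaled log2 signal below. A signal the software did not mark as well above background has only an upper bound, set at the lowest detected signal of its array, which was 25.0 intensity units for LT-HSC, 20.8 for ST-HSC, 18.8 for progenitors and 20.9 for Lin+ cells, or the probe's own value where that was higher. Differences against such a value are given as at least N-fold. In bulk RNA, fewer cells that use a gene and less RNA per cell cannot be told apart.

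Promoter sequence was available in the RefSeq table (GRCm38.p6) for 3 of the 9 genes. The 250 bases before the annotated start are shown for each of these 3. Hoxb4 was well above background on every array, and Hoxb1 and Hoxb8 on none. A link between the matches and detection was not tested. Capitals mark matches on either strand. The motif TGATNNAT is a site of the kind bound by Pbx with a Hox partner. The motif CCAAT is the kind bound by the factor NF-Y. The motif TATAAA is a promoter element bound by the general transcription machinery. The E-box CACGTG is the kind bound by USF proteins. The regions are chr11:96365508-96365757 for Hoxb1, chr11:96318017-96318266 for Hoxb4 and chr11:96281655-96281904 for Hoxb8, all on the plus strand.
Hoxb1: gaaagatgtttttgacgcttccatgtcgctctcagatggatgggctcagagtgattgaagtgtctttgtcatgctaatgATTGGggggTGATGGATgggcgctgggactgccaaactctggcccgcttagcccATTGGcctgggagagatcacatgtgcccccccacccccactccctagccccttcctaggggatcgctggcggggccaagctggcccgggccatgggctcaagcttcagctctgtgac
Hoxb4: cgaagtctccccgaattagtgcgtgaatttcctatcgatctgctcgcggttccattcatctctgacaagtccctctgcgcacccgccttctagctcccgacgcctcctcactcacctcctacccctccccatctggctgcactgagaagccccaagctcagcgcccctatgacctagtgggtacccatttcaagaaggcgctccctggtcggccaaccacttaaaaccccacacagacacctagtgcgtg
Hoxb8: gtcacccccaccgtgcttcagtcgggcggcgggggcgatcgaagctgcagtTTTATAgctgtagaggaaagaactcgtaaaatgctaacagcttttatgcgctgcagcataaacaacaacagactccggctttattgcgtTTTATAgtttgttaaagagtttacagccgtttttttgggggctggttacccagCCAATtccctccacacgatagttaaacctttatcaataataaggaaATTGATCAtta

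The Hoxb1 window held 1 match to TGATNNAT, 162 bases before the start, and 2 matches to CCAAT. Hoxb1 protein is known to bind its own control region together with Pbx. The Hoxb8 window held 1 match to TGATNNAT, 1 to CCAAT and 2 to TATAAA. The Hoxb4 window held no match to any of the 4 motifs, and CACGTG was in none of the 3 windows. Over 32851 promoter windows of the same length, 7.68% held TGATNNAT, 33.8% CCAAT, 12.4% TATAAA and 6.02% CACGTG. A match describes letters only.

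In cluster order, the genes marked well above background in LT-HSC formed an unbroken block, while those so marked on the later arrays did not. In LT-HSC the 5 genes from Hoxb2 to Hoxb6 were well above background, and Hoxb1 at the 3′ end and Hoxb7, Hoxb8 and Hoxb9 toward the 5′ end were not. The number was 4 of 9 in ST-HSC, without Hoxb5, then 2 in progenitors (Hoxb4 and Hoxb6) and 3 in Lin+ cells (Hoxb2, Hoxb4 and Hoxb6). Among all named genes the share well above background was 58.5% for LT-HSC, 59.8% for ST-HSC, 57.5% for progenitors and 61.4% for Lin+ cells, so the members' number was lower after LT-HSC while that of all genes stayed near level. The LT-HSC array thus gave all 5 genes, and Hoxb4 and Hoxb6 were detected on every array.

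**Figure D1:**
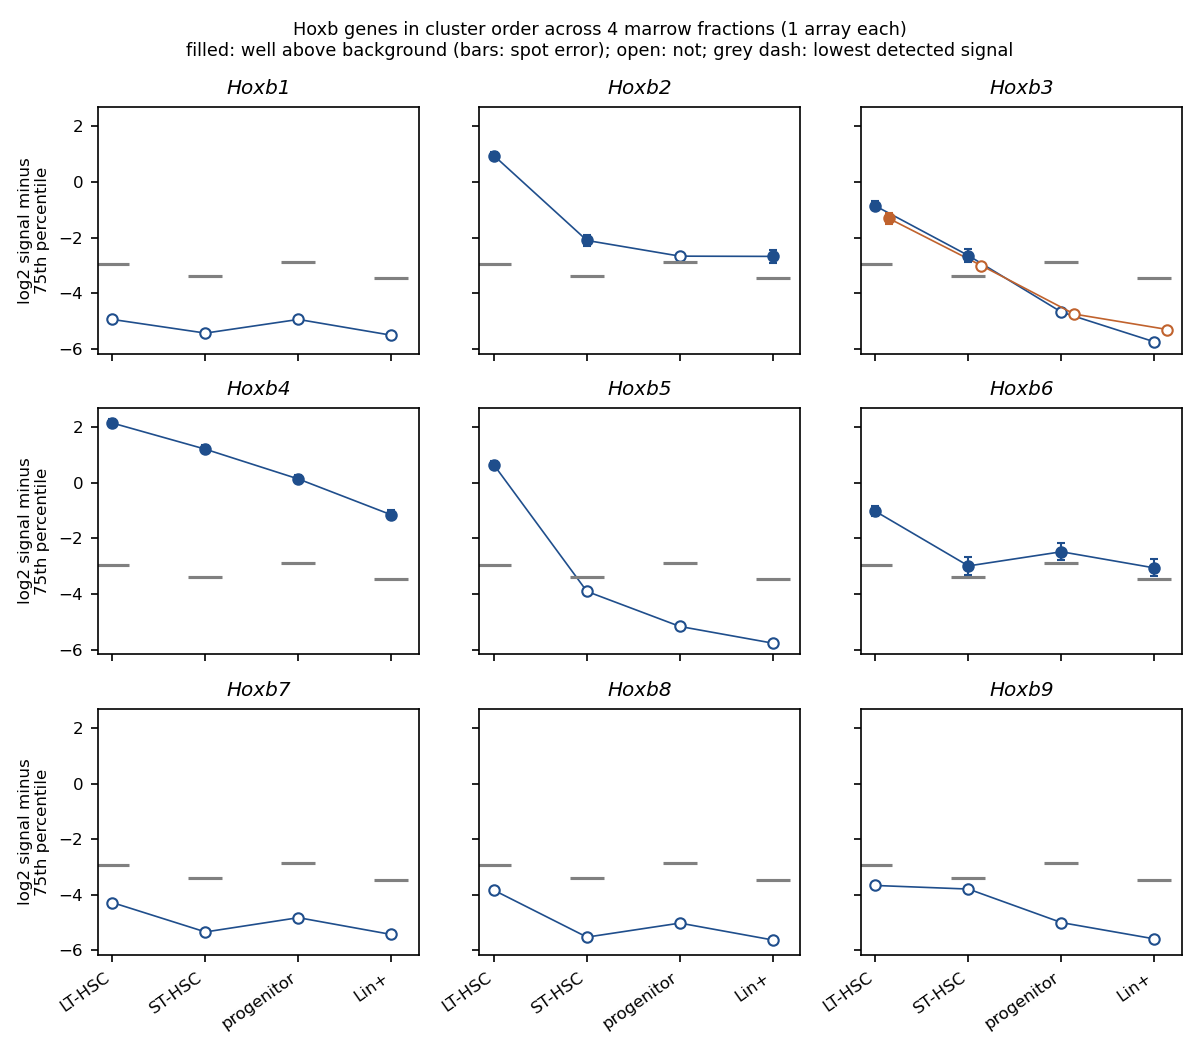
Scaled log2 signal (log2 signal minus the array's 75th percentile) of each Hoxb gene in LT-HSC, ST-HSC, progenitors and Lin+ cells, 1 array each, in cluster order. Filled circles are well above background with bars for spot error, open circles are not, grey dashes mark the lowest detected signal of the array, and orange shows the second Hoxb3 probe. Hoxb4 steps down through 2.15, 1.21, 0.14 and -1.15, while Hoxb2, Hoxb3, Hoxb5 and Hoxb6 are each highest in LT-HSC.

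Hoxb4, the stem cell-expanding factor, was detected on every array and was lower in each later fraction than in the one before. Its signal was 851 ± 85.3 intensity units for LT-HSC, 503 ± 50.5 for ST-HSC, 151 ± 15.7 for progenitors and 104 ± 11.4 for Lin+ cells. On the scaled log2 scale these were 2.15, 1.21, 0.14 and -1.15. The 3 successive log2 differences were -0.94 ± 0.20 for ST-HSC minus LT-HSC, -1.07 ± 0.21 for progenitors minus ST-HSC and -1.29 ± 0.22 for Lin+ cells minus progenitors. Each exceeded its spot error, and the first fell short of 2-fold. With spike-in scaling they were -0.63, -1.70 and -0.69. The second was -0.90 with normexp background correction. Here and below, normexp adds an offset of 50 units to each signal, which by itself makes differences between weak signals smaller. The third was under 2-fold under 4 of 11 alternatives, with a smallest size of -0.69, and the median gene measured on both arrays stood at -0.42 in that comparison. From end to end Hoxb4 was 9.88-fold lower in Lin+ cells than in LT-HSC. Of 10615 genes well above background on all 4 arrays, 1026 (9.67%) were likewise lower at each of the 3 steps, by any amount.

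Hoxb5, the stem cell marker gene, was detected in LT-HSC and on no other array. It gave 299 ± 30.3 intensity units for LT-HSC, 14.5 ± 4.48 for ST-HSC, 3.82 ± 3.85 for progenitors and 4.22 ± 4.23 for Lin+ cells. The ST-HSC signal was positive and significant against background by the software's weaker mark, and those of progenitors and Lin+ cells were not. Hoxb5 was at least 16.3-fold lower in ST-HSC than in LT-HSC, at least 11.4-fold lower in progenitors and at least 17.2-fold lower in Lin+ cells. The order of these bounds follows the arrays' detection limits and not the gene. The pattern of detection in LT-HSC alone was shared by 256 of 20284 named genes (1.26%).

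Hoxb2, known for its part in patterning the hindbrain, had the next largest difference between the stem cell fractions. Its signal was 369 ± 37.4 intensity units for LT-HSC, 50.6 ± 7.04 for ST-HSC, 21.6 ± 4.89 for progenitors, where it was not well above background, and 36.0 ± 6.02 for Lin+ cells. The difference of ST-HSC from LT-HSC was -3.05 ± 0.25, or 8.29-fold lower. With normexp it was -1.92. Hoxb2 was at least 12.3-fold lower in progenitors and 12.3-fold lower in Lin+ cells than in LT-HSC. With normexp these log2 differences were -1.79 and -2.10, against -3.62 and -3.63 as reported. Between ST-HSC and progenitors the bound was at least 1.48-fold lower, under the 2-fold that was called.

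Hoxb3, a neighbour of Hoxb4 in the cluster, was measured by 2 probes that pointed the same way. The brighter probe gave 105 ± 11.8 intensity units for LT-HSC, 34.7 ± 5.53 for ST-HSC, 5.35 ± 3.93 for progenitors and 4.27 ± 4.28 for Lin+ cells, the last 2 not well above background. The second gave 77.5 ± 10.4, 27.0 ± 6.16, 5.09 ± 5.12 and 5.81 ± 5.83 in that order and was well above background in LT-HSC alone. For ST-HSC minus LT-HSC the brighter probe gave -1.79 ± 0.28, or 3.45-fold lower, and the second at least 3.26-fold lower. Against LT-HSC, Hoxb3 was at least 4.01-fold lower in progenitors and at least 6.07-fold lower in Lin+ cells by the brighter probe.

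Hoxb6 was detected on every array at a low level outside LT-HSC. It gave 94.0 ± 11.4 intensity units for LT-HSC, 27.4 ± 5.90 for ST-HSC, 24.6 ± 5.31 for progenitors and 27.6 ± 5.86 for Lin+ cells. It was lower in ST-HSC than in LT-HSC by a log2 difference of -1.96 ± 0.36, or 3.90-fold. The later 3 fractions were not separated: progenitors minus ST-HSC gave 0.51 ± 0.44 and Lin+ cells minus progenitors -0.58 ± 0.44, each under 2-fold and little above the spot error. With normexp the difference of ST-HSC from LT-HSC was under 2-fold for Hoxb6, at -0.80, and for Hoxb3, at -0.94.

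Hoxb7, Hoxb8 and Hoxb9 were not well above background on any array, but their weak signals were not the same on all of them. In LT-HSC they gave 9.85 ± 6.76, 13.4 ± 5.94 and 15.1 ± 6.10 intensity units. Each was positive and significant by the weaker mark and above the highest of 293 negative control spots, 7.27. Negative control spots flagged as outliers are left out here and below. In ST-HSC Hoxb9 gave 15.7 ± 5.01, above the highest negative control at 8.20, whereas Hoxb7 at 5.38 and Hoxb8 at 4.73 lay under it. In progenitors and Lin+ cells all 3 genes lay between 4.24 and 5.35, under the highest negative control of their arrays (8.97 and 7.42). No difference is given for these genes, since both sides of each comparison are bounds. Counting every named gene, 68.9% exceeded the highest negative control for LT-HSC, 68.6% for ST-HSC, 64.8% for progenitors and 71.3% for Lin+ cells, against 8, 6, 3 and 3 of the 9 Hoxb genes.

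Hoxb1, which is known from the embryonic hindbrain, was at background on every array. Its probe is printed 10 times per array. The median over unflagged spots was 6.24 intensity units for LT-HSC, 5.05 for ST-HSC, 4.46 for progenitors and 5.06 for Lin+ cells, close to the negative control medians of 6.01, 4.90, 4.40 and 4.86. Hoxb13, which lies apart at the 5′ end of the cluster and is not among the 9 genes, gave 6.31, 5.09, 4.58 and 5.07 intensity units in the same order and was also not well above background.

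**Figure D2:**
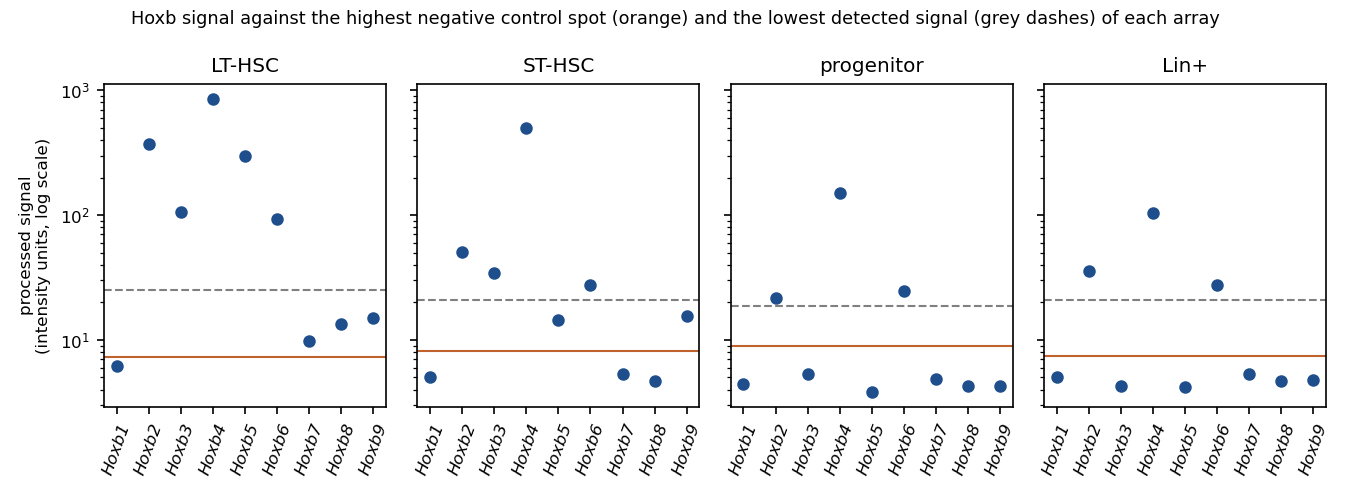
Processed signal of the 9 Hoxb genes (intensity units, log scale) on each array, with 1 point per gene. Orange marks the highest negative control spot not flagged as an outlier, and grey dashes mark the lowest detected signal. In LT-HSC 8 genes lie above the highest negative control, and in progenitors and Lin+ cells 3 do. Levels of different probes are not comparable with each other.

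Setting ST-HSC against LT-HSC addressed the step between the stem cell fractions, and most of the detected Hoxb genes were lower there. No later step could be resolved for Hoxb5, nor Lin+ cells against progenitors for Hoxb3. Of the 9 genes, 5 could be compared and 4 were at least 2-fold lower in ST-HSC (Hoxb2, Hoxb3, Hoxb5 and Hoxb6). None was higher. Of all 12617 genes compared, 9% were at least 2-fold lower and 5.81% at least 2-fold higher. The median of the 5 genes was -1.96 with bounds included, beside 0.02 for all genes. Hoxb5 entered the comparison through its LT-HSC signal alone, so it could only be lower, and the count is a description. Hoxb5 had the difference that 0.166% of compared genes undercut and Hoxb2 that which 0.737% did, while Hoxb6 stood at 3.05%, Hoxb3 at 3.62% and Hoxb4 at 9.69%. LT-HSC exceeded each other fraction by at least 2-fold for 4 of the 5 detected members, and for 606 of 13753 genes detected on any array (4.41%). All 5 members were detected in LT-HSC, while the 13753 hold genes that were not, such as 786 detected in Lin+ cells alone. Where a member was not detected in a later fraction, LT-HSC could only be higher. These shares are therefore not compared.

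The next steps involved few members. For progenitors against ST-HSC, 4 genes could be compared and Hoxb4 was the 1 that was at least 2-fold lower, beside 10.2% of all genes lower and 10% higher. For Lin+ cells against progenitors, 3 could be compared and Hoxb4 was again the 1 called lower, beside 26.4% of all genes, and 14.5% were higher. With 1 gene in each, these counts are no result about the cluster. The progenitor array also showed a trend with gene length: in the group of genes with the shortest genomic spans, to which Hoxb2 and Hoxb4 belong, the median of progenitors minus ST-HSC was 0.42, and in the longest -0.15. For Lin+ cells minus progenitors these medians were -0.56 and -0.05. Hoxb4 thus differed in the direction opposite to its span group's median at the first of these steps and in the same direction at the second. The part of the trend in the members' values was not tested.

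Against LT-HSC as the common starting fraction, all 5 detected genes were lower by 2-fold or more in progenitors and Lin+ cells alike. With normexp 4 of the 5 were, without Hoxb6, which stood at -0.43 in progenitors and -0.996 in Lin+ cells minus LT-HSC. The background was 13.8% of 12544 genes lower and 15.5% higher in progenitors, and 23.2% of 13276 lower and 16.1% higher in Lin+ cells. The members' medians were -2.01 and -3.30, bounds included, beside 0.18 and -0.17 for all genes. Both comparisons share the LT-HSC array with the first, so their counts are not independent of it. Hoxb2, Hoxb3 and Hoxb5 entered the progenitor comparison, and Hoxb3 and Hoxb5 the Lin+ one, through LT-HSC alone, so they could only be lower, and nothing is read from the counts or medians of 5.

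**Figure D3:**
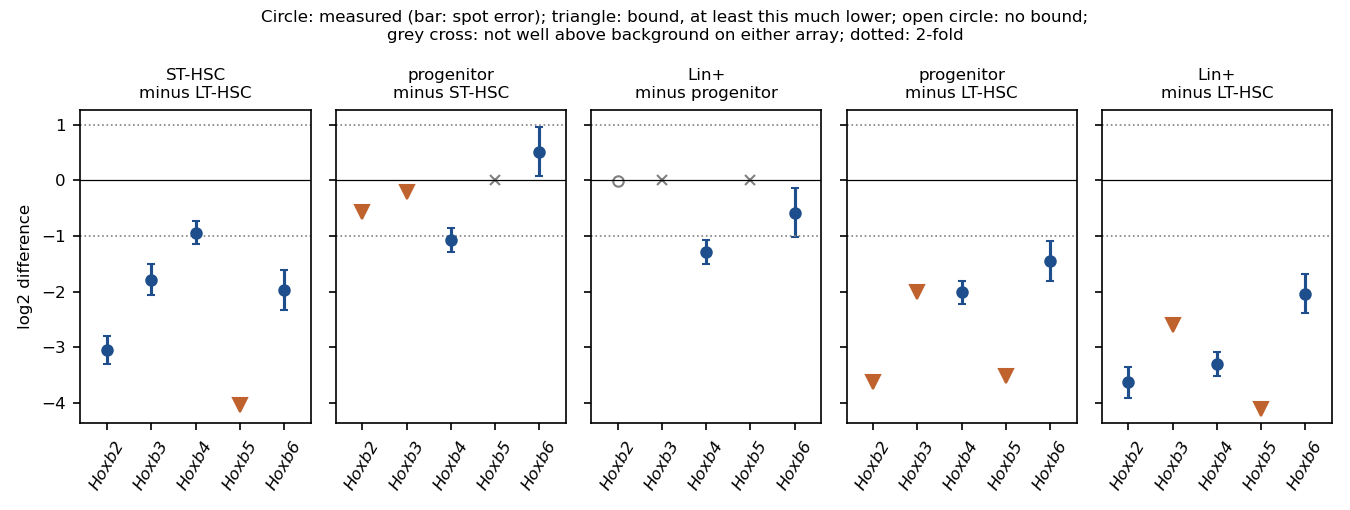
Log2 difference of the 5 detected Hoxb genes in 5 comparisons. Circles are measured differences with spot error, triangles are bounds (at least this much lower), the open circle has no bound, grey crosses mark genes not well above background on either array, and dotted lines mark 2-fold. In the first panel Hoxb2 lies at -3.05, Hoxb5 at or below -4.03 and Hoxb4 at -0.94.

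**Figure D4:**
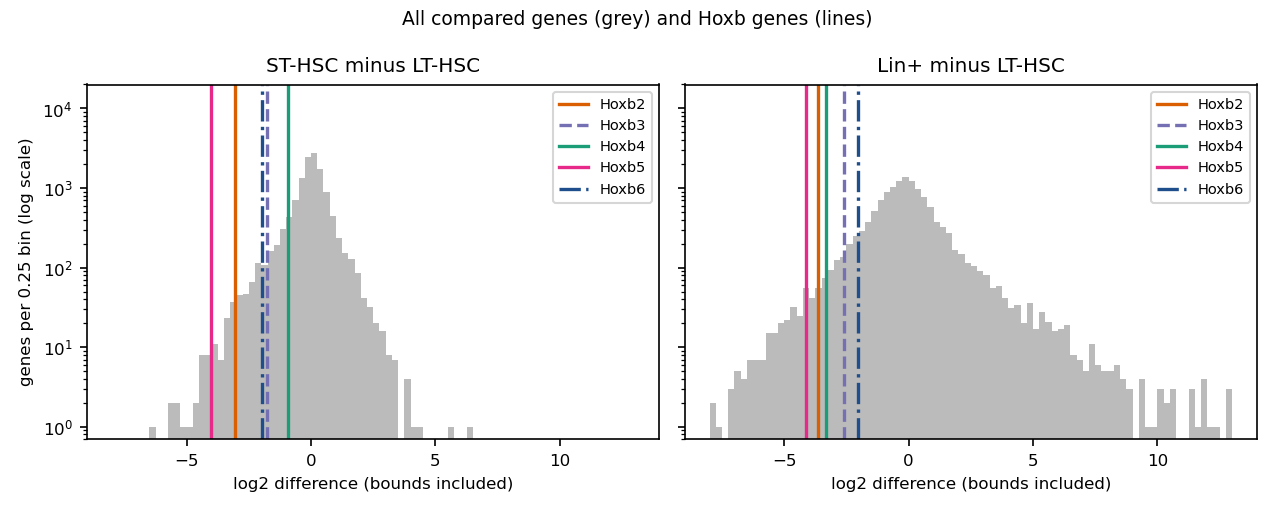
Number of genes per bin of log2 difference (log scale, bounds included) for ST-HSC minus LT-HSC and Lin+ minus LT-HSC, with a line for each of 5 Hoxb genes. All lines lie left of 0, from -0.94 to -4.03 in the first panel and from -2.04 to -4.11 in the second.

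Detected genes of the Hoxa cluster, and Hoxc6, were also lower in later fractions. No Hoxd gene and no other Hoxc gene was well above background on any array. Of 29 Hoxa, Hoxc and Hoxd genes on the array, 9 were well above background for LT-HSC, 8 for ST-HSC, 4 for progenitors and 2 for Lin+ cells. Of those that could be compared, 5 of 9 were at least 2-fold lower in ST-HSC than in LT-HSC, 4 of 8 in progenitors than in ST-HSC, 4 of 4 in Lin+ cells than in progenitors and 9 of 9 in Lin+ cells than in LT-HSC. No member was higher in any of these. Of all genes compared, 9%, 10.2%, 26.4% and 23.2% were lower in these 4 comparisons. Members detected in the earlier fraction alone, such as Hoxc6, could only be lower. Hoxa5, with -2.17 ± 0.21, and Hoxc6, at least 4.28-fold lower, led in ST-HSC. Hoxa7 was level between the stem cell fractions at -0.03 ± 0.20 and differed by -3.05 ± 0.21 for Lin+ cells minus progenitors.

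Of the 9 genes for DNA-binding partners of Hox proteins (Pbx, Meis and Pknox), 7 were well above background on every array. Meis1, a partner known from leukaemia with Hox genes, stepped down through scaled log2 signals of 6.53 for LT-HSC, 5.63 for ST-HSC, 3.99 for progenitors and 0.41 for Lin+ cells. Its differences were -0.90 ± 0.20 in ST-HSC minus LT-HSC, -1.64 ± 0.20 in progenitors minus ST-HSC and -3.58 ± 0.21 in Lin+ cells minus progenitors. Pbx4 differed by -2.02 ± 0.30 in Lin+ cells minus progenitors, and Pbx3 by -1.02 ± 0.21 in progenitors minus LT-HSC. Pbx2, Meis3 and Pknox1 differed by less than 2-fold in all 5 comparisons. Meis2 and Pknox2 were not well above background on any array. In ST-HSC against LT-HSC, 0 of 7 partners were called.

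Among 20 measured regulators of Hox genes, 17 were detected and 2 were called in ST-HSC against LT-HSC. Cdx1, Cdx2 and Cdx4 were not well above background on any array, and Kmt2a, the MLL gene, had no named probe. Mllt3, an MLL fusion partner that acts in the elongation of transcription, was lower, at -2.09 ± 0.21, and Ezh2, the Polycomb methyltransferase, was higher, at 1.32 ± 0.20. Among 15 retinoic acid genes, 5 of 9 were lower in ST-HSC than in LT-HSC and 0 higher, beside 9% and 5.81% of all genes. Of these, Rarb and Cyp26b1 entered through LT-HSC alone and could only be lower. Rarg, the smallest of them, is named here after its value was seen. Among the 5 were Rarb and Rarg, which encode receptors, at least 12.2-fold lower and -1.06 ± 0.21, Aldh1a1, an enzyme of retinoic acid synthesis, at -4.40 ± 0.21, and Cyp26b1, which degrades retinoic acid, at least 84.1-fold lower. Aldh1a1 was 13.3-fold higher in progenitors than in ST-HSC. The lists' medians were 0.01 for regulators and -1.06 for retinoic acid genes, beside 0.02 for all genes. In Lin+ cells against progenitors 4 of 17 regulators were lower and 3 higher, and 3 of 9 retinoic acid genes were lower and 2 higher, beside 26.4% of all genes lower and 14.5% higher.

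Of the genes beside the cluster, Skap1 and Snx11 were detected. Skap1, which encodes an adaptor of T cells and lies beyond Hoxb1, gave a scaled log2 signal of -1.57 in LT-HSC and 2.03 in Lin+ cells, and in ST-HSC and progenitors it stayed under detection. It was at least 3.52-fold lower in ST-HSC and at least 2.45-fold lower in progenitors than in LT-HSC, and 12.1-fold higher in Lin+ cells than in LT-HSC. Snx11, a sorting nexin gene further along, was higher at each step, by less than 2-fold each time, and differed by 1.33 ± 0.20 in Lin+ cells minus LT-HSC (scaled log2 signals of 4.35 and 3.02). The non-coding genes Gm53 and Gm11529 were not well above background. No probe carried an accession of Hoxb3os, Hoxb5os, Mir10a or Mir196a-1.

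By the root mean square distance between centred profiles over the 4 arrays, the genes nearest to Hoxb4 among 13753 were Il17rc (0.04 on the log2 scale), 1190005I06Rik (0.08), Csad (0.09), Zfp503 (0.10) and Pnck (0.12). Those nearest to Hoxb5 were Efna1 (0.01), Neil2 (0.08), Rarb (0.18), Tcf15 (0.19) and Lbhd2 (0.20), of which 4 share with Hoxb5 detection in LT-HSC alone, so the distance there compares detection limits as well. Those nearest to the mean of the 5 detected members were Triqk (0.03), Cdh15 (0.06), Plcl1 (0.09), Ikzf4 (0.09) and Nudt11 (0.10). With 4 arrays many genes can share a profile.

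Markers of the sort and of other cells were measured on the same arrays. Cd34, the gene of the marker that separates the stem cell gates, was at scaled log2 signals of 8.53 in ST-HSC and 7.34 in LT-HSC, so its RNA was present in the CD34-negative gate. Of 4 B cell markers all were detected on the Lin+ array, 1 on the progenitor array and 0 on either stem cell array. Of 4 T cell markers all were detected on the Lin+ array, and 2, Cd3e and Lck, on each of the other arrays. Their summed scaled signals were 15.6 for LT-HSC, 17.4 for ST-HSC, 11.9 for progenitors and 39.2 for Lin+ cells, in units of the 75th percentile. All 7 long-term stem cell markers were well above background for LT-HSC, 4 for ST-HSC, 5 for progenitors and 3 for Lin+ cells, with summed scaled signals of 98.1, 24.5, 25.3 and 2.39 times the 75th percentile. Most of the progenitor sum came from Vwf, at a scaled log2 signal of 4.45, while Procr stood at -0.52 and Fgd5 and Mecom were not detected there. The short-term and multipotent markers Flt3 and Cd48 were detected on every array, with sums of 34.4, 111, 44.6 and 22.2. Flt3 stood at 4.35 in LT-HSC and 5.81 in ST-HSC, and Cd48 at 3.80 and 5.78, so RNA of both was present in LT-HSC. Of 6 endothelial markers 4, 3, 2 and 3 were detected in the same order, with sums of 39.6, 36.2, 68.7 and 39.1, most of it from Kdr. Tek was detected in LT-HSC alone, at -1.14, and Emcn in LT-HSC at 0.29 and ST-HSC at -0.46, while Cdh5 was detected in Lin+ cells alone and Sox17 on no array. Of 7 marrow stroma markers 4, 4, 4 and 5 were detected, with sums of 27.3, 27.3, 47.5 and 23.8, and Col3a1 and Pdgfra were detected on none. Within that list the scaled log2 signals of the collagen gene Col1a2 were 1.78, 0.54, 0.39 and -2.70, those of Lepr 4.33, 4.35, 5.43 and 4.51, and those of Pdgfrb 1.40, 2.37, 1.48 and -2.71. Cxcl12, a chemokine gene, was detected at -0.04 in LT-HSC, -1.83 in progenitors and -2.13 in Lin+ cells and not in ST-HSC, and Col1a1 was detected in ST-HSC at -3.23 and Lin+ cells at -1.18. Megakaryocyte markers had sums of 108, 12.3, 257 and 8.72, granulocyte-monocyte progenitor markers 122, 1453, 4979 and 1820, and erythroid markers 8.75, 1.07, 71.7 and 3525. The part of these cells in the Hoxb values was not tested.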

How the data were processed

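Scanner files of 4 arrays, 1 per fraction, were used. Per the labels' protocols, 10 ng of total RNA was amplified and labelled with Cy3. The intensity values were deposited as Agilent Feature Extraction output (version 10.7.1.1, per the submitters' processing notes), of which the processed signal was used, and the steps inside the software are not given in the sources used here. All arrays lay on 1 slide. The deposited flags mark outliers, saturation and detection. The authors' deposited value table holds a ratio: processed signal over 1 constant per array, equal within 1% for 100% of 55246 single-spot probes, and its column medians were 0.0619, 0.0630, 0.0704 and 0.0738 in the order of differentiation.

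Control and outlier spots were left out, spots of 1 probe averaged on the log2 scale, and each array scaled to its 75th percentile (192, 217, 137 and 230). A probe counted as detected when every kept spot was well above background. No spot was saturated. Accessions were named through the RefSeq table of GRCm38.p6 (26762 probes, 48.1%), and the array's build is mm9, so no gene coordinates were taken from it. The brightest probe stood for a gene. A gene was called at 2-fold with at least 1 side detected. No test across replicates was possible, since each fraction has 1 array. The number of arrays limits the precision.

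The members, lists and rules were chosen with earlier results of these data known. Named genes were the 9 members, their neighbours, the partners, the largest called members of the other lists and the 5 nearest profiles, and some of these are not reported here. Calling was tested on simulated data. Normexp (limma 3.58.1, R 4.3.3, offset 50) used the median signal, which the files hold, in place of the mean signal that was planned. The other steps used Python 3.11.15, numpy 2.4.6 and pandas 2.3.3.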

Additional observations from a re-analysis of the deposited data

Results flagged for a closer look

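On the progenitor array 2 of the 10 Hoxb1 spots, left out of the comparisons as outliers by the software, gave 72.4 and 78.6 intensity units and were marked well above background. The other 8 spots of the same probe lay between 4.17 and 4.93. The highest of 301 negative control spots gave 8.97. Control spots flagged as outliers were left out of that maximum, so the 2 flagged spots are set against kept controls alone. On the LT-HSC array 1 left-out spot gave 20.6, and on the ST-HSC array 1 gave 5.16. No left-out spot was present on the Lin+ array.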

How the results depend on the processing

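Of 55 counts of members called lower under 11 alternatives, 40 stayed within 1.5 times the reported count and 15 did not. Some alternatives could hardly move a count. The deposited table divides the same signal by a constant close to the 75th percentile used (190.9 against 191.5 for LT-HSC). Averaging probes could change Hoxb3 alone among the members. The counts of members called higher were 0 throughout, and no called difference of a single member changed sign. For ST-HSC against LT-HSC, 2 members were lower with normexp, whose offset makes differences between weak signals smaller. For progenitors against ST-HSC the number lower was 2 with spike-in scaling, 0 with normexp, 4 without background filter and floor and 4 with the weaker detection mark, an alternative chosen after seeing the data. For Lin+ cells against progenitors it was 0 with the 75th percentile of commonly detected probes, with spike-ins, with the median gene at 0 and with normexp, and 2 without filter and floor and with the weaker mark, so Hoxb4's call there depends on the scaling. When both arrays had to detect a gene, 2 members were lower in progenitors and 3 in Lin+ cells than in LT-HSC. Without filter and floor, and with the weaker mark, 8 were lower in Lin+ cells than in LT-HSC. For ST-HSC minus LT-HSC, Hoxb4 passed 2-fold in 1 of 11 alternatives, and Hoxb5 ranged over -4.55 to -2.35. The share of higher calls over all genes was 39.2% for ST-HSC against LT-HSC (35.01% to 63.0% over 5 scalings), 49.6% for progenitors against ST-HSC (13.8% to 38.9%), 35.5% for Lin+ cells against progenitors (31.9% to 71.0%), 52.8% for progenitors against LT-HSC (29.4% to 38.8%) and 41.0% for Lin+ cells against LT-HSC (30.7% to 55.2%). Spike-in scaling put the median gene measured on both arrays at 0.34, -0.42 and 0.18 at the 3 steps, beside 0.03, 0.21 and -0.42 as reported. No paired analysis was possible because each fraction has 1 array. The causes were not tested.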
